A study of Mus musculus with 25 samples.

Results

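Livers of mice on the FAT-MASH regimen that drank 20% mannose for all 12 weeks were compared with livers of mice on a normal diet, to describe what stays different from healthy liver under the regimen with mannose. The groups were taken from the labels for diet, mannose dose and duration. They hold 3 libraries each, 6 of the 25 libraries in the series, 1 mouse liver per library as far as the labels say.

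All mice were male C57BL/6J mice, 8 weeks old at the start and 20 weeks old at the end. The normal-diet mice ate ordinary chow and drank water. The FAT-MASH regimen, a model of steatohepatitis, combined chow that held 21.1% fat, was 41% sucrose by the labels and carried 1.25% cholesterol, with sugar water of fructose and glucose and a weekly injection of carbon tetrachloride into the abdomen. The 20% mannose group received that regimen with mannose at 20% weight by volume in its drinking water from the first week, which the study calls prevention. Whether fructose and glucose stayed in the water that held mannose is not given in the sources used here. The fat, the cholesterol, the sugars, the solvent and the mannose all differ between the groups, so their parts in any difference cannot be told apart in this comparison. For that reason the values of 3 FAT-MASH livers without mannose stand beside those of the other groups, with the direct test of 20% mannose against FAT-MASH, and 5 livers of a second batch give 20% mannose against none on the normal diet.

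Metabolic dysfunction-associated steatohepatitis is a liver disease in which hepatocytes fill with fat while inflammation, cell death and scarring follow. Carbon tetrachloride is made toxic by cytochromes of the hepatocytes around the central vein, and the injury calls in macrophages, activates the stellate cells that lay down collagen, and makes the remaining hepatocytes divide. Healthy hepatocytes make cholesterol, bile acids and most plasma proteins, dispose of amino nitrogen as urea, and split these tasks between the zones near the portal vein and near the central vein. Mannose is a hexose that enters glycolysis through mannose phosphate isomerase, encoded by Mpi, or goes into glycoproteins through phosphomannomutase, encoded by Pmm2.

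The deposited counts per library ranged from 32347366 to 50081298 in these 6 libraries, and the 10 most abundant genes held 16.3% to 18.42% of them. Albumin, encoded by Alb, was counted at 71455, 79073 and 79762 CPM (normalized read counts scaled by edgeR's TMM factors) on the normal diet and at 74659, 70293 and 60487 with the regimen and 20% mannose. Summed over 11 markers that define hepatocytes, the levels were 120600 to 132800 CPM and 118800 to 130000 CPM. These sums and every summed marker level given below were scaled by library totals, without TMM factors. They are therefore not on the same scale as the CPM of single genes. Of 11 pancreas and muscle markers, 5 had no count in any of the 9 first-batch libraries of the 3 groups, and their sum stayed at or under 0.9893 CPM. The defining markers of the labelled tissue were thus present. In whole tissue, fewer cells of a type and less RNA per cell cannot be told apart.

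Of 19571 genes tested, 6511 (33.3%) differed from the normal diet at a Benjamini-Hochberg adjusted p of at most 0.05 in edgeR's quasi-likelihood test. They were 3559 genes (18.2%) with higher and 2952 genes (15.1%) with lower levels in the 20% mannose group. Log2 fold changes below are the 20% mannose group minus the normal diet unless another group is named, with their standard errors, and n is 3 in each group. With a change of at least 2-fold as well, 1799 (9.19%) were higher and 964 (4.93%) lower. When each of the 6 libraries was left out in turn, 2120 higher genes (10.8%) and 2010 lower genes (10.3%) kept their call in every repeat. Scaling by library totals alone moved the median log2 fold change of all genes from 0.03 to 0.28, and the share of higher genes among those called from 54.7% to 78.5%, with 5980 genes higher and 1640 lower. A list's median is therefore read against the median of all genes, which was 0.03 in the main fit. The count of calls in a list is read against the shares of all genes, 18.2% higher and 15.1% lower. FAT-MASH alone differed from the same 3 normal-diet libraries in 2687 genes (13.7%), 1528 higher (7.81%) and 1159 lower (5.92%). The 20% mannose group differed from FAT-MASH in 2952 genes (15.1%), 1336 higher (6.83%) and 1616 lower (8.26%).

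**Figure D1:**
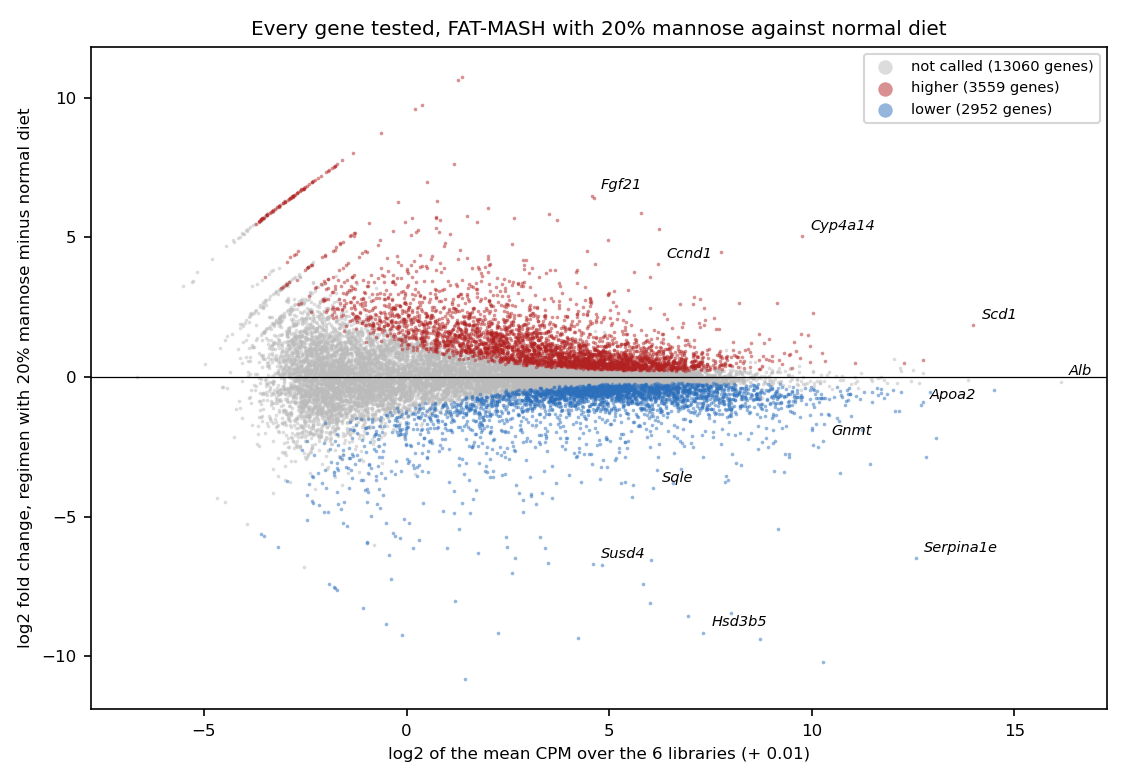
Every gene tested, by the log2 of its mean CPM over the 6 libraries (horizontal) and its log2 fold change, the FAT-MASH regimen with 20% mannose minus the normal diet (vertical). Red points are the 3559 genes called higher, blue points the 2952 called lower and grey points the genes not called. Hsd3b5 and Serpina1e lie far below the axis, Fgf21 and Cyp4a14 far above it.

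The most abundant transcripts were mainly lower. Of the 100 genes with the highest mean level, 58 were lower and 6 higher, with a median log2 fold change of -0.49, where the median of FAT-MASH alone against the normal diet was -0.06. These values rest on TMM scaling and were not repeated under library totals. That setting moved the median of all genes upward, from 0.03 to 0.28, so the size of this fall depends on the scaling. Among the hepatocyte markers, 8 of 11 fell and 1 rose, Alb not among them (log2 fold change -0.16 ± 0.12, SE). Apoa2, an apolipoprotein of high-density lipoprotein, was counted at 8588, 8206 and 9816 CPM on the normal diet, 8854, 7471 and 6595 in FAT-MASH and 4514, 4658 and 4062 with 20% mannose. The mannose libraries lay below all 6 others, with a log2 fold change of -1.01 ± 0.13 from the normal diet (adjusted p = 8.66e-06) and -0.79 ± 0.13 from FAT-MASH (adjusted p = 0.000399). The carriers of thyroid hormone and of retinol, encoded by Ttr and Rbp4, fell with log2 fold changes of -0.87 ± 0.13 and -0.63 ± 0.11. Under library totals 6 of the 11 markers were lower and 1 higher.

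**Figure D2:**
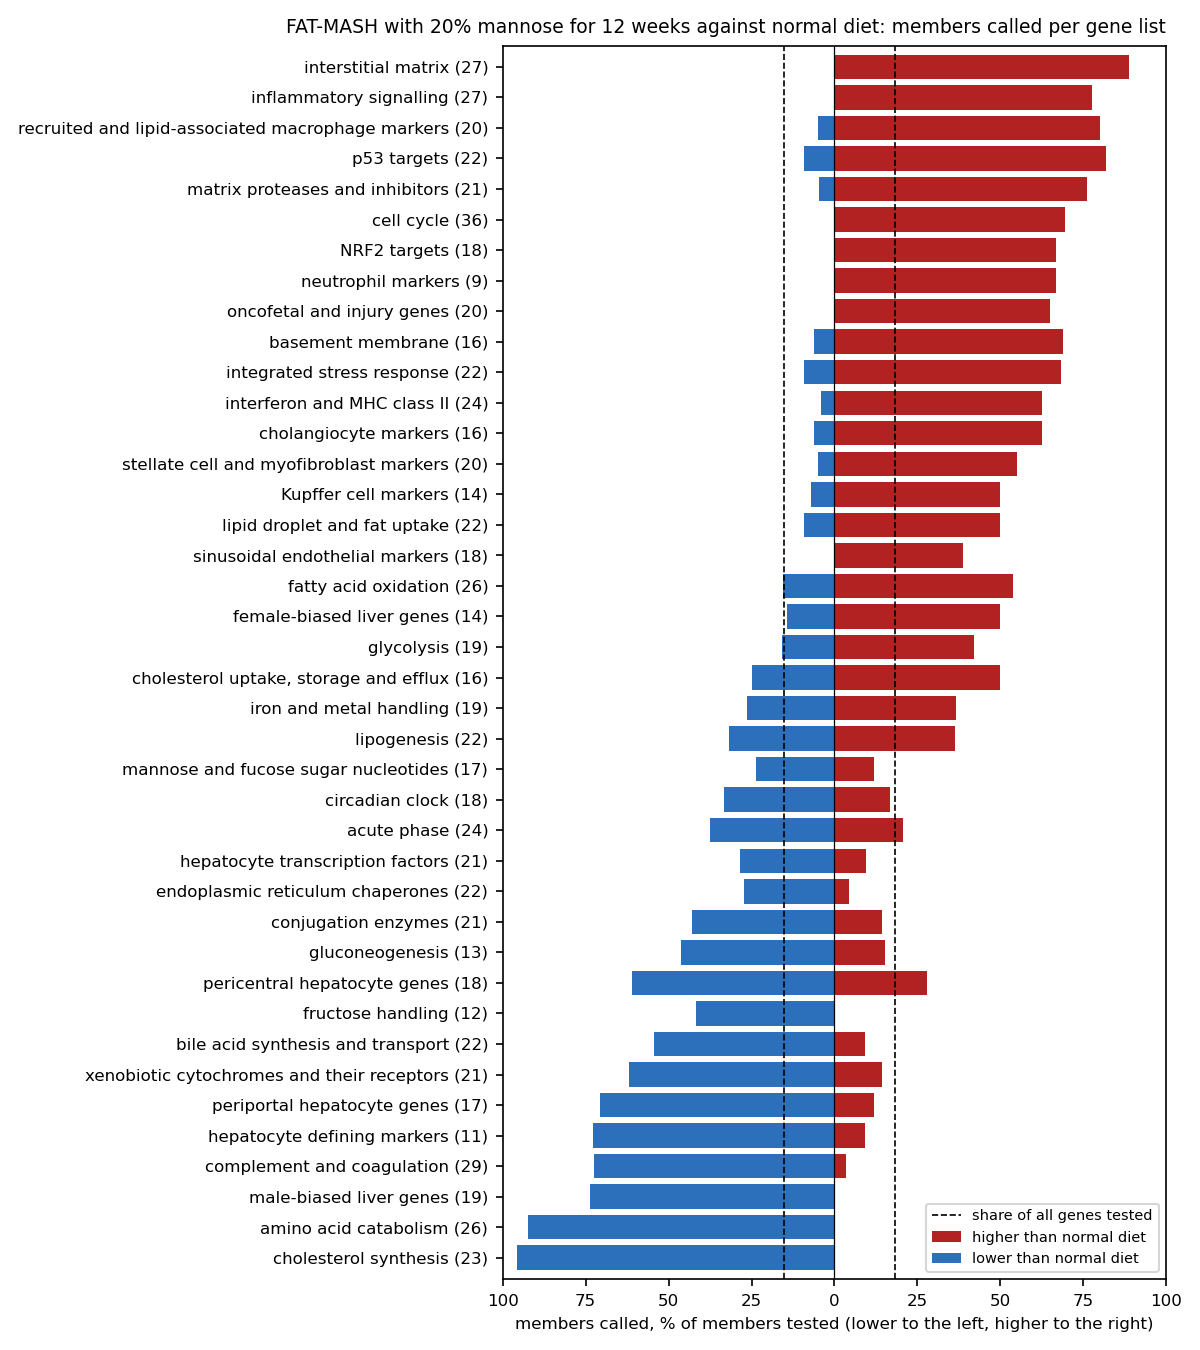
Percentage of the members of each gene list that were called higher (red, to the right) or lower (blue, to the left) in the FAT-MASH regimen with 20% mannose against the normal diet. The number of members tested stands in brackets and the dashed lines give the share of all genes tested, 18.2% higher and 15.1% lower. Cholesterol synthesis and amino acid catabolism lie at one end of the plot, and the interstitial matrix at the other.

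The 10 steepest rises and the 10 steepest falls were taken among genes with a mean of at least 5 CPM whose groups did not overlap and whose call held without each library. The rises were those of Fgf21, Rad51b, Ly6d, Nrg1, Eda2r, Fam83a, Cyp2a4, Cyp4a14, Lcn2 and Slc35f2, with log2 fold changes from 4.78 to 6.50. Rad51b (chr12:79344056-79861464, GRCm39), a gene of homologous recombination, was counted at 0.575, 0.575 and 0.559 CPM on the normal diet, 41.7, 23.3 and 22.5 in FAT-MASH and 45.1, 62.2 and 39.9 with 20% mannose. Its 3 normal-diet libraries were all below 1 CPM, and the log2 fold change was 6.42 ± 0.28 (adjusted p = 2.94e-11). Nrg1, a ligand of the ErbB receptors, stood at 0.301, 0.496 and 0.350 CPM, 3.00, 4.64 and 5.49 CPM and 20.1, 31.3 and 15.6 CPM in the same order. It was higher in the mannose group than in either other group, with log2 fold changes of 5.84 ± 0.49 and 2.36 ± 0.38 (adjusted p = 6.41e-08 and 0.000351). Slc35f2, a solute carrier, was close to equal in both regimens, at 11.8, 11.7 and 10.1 CPM in FAT-MASH and 12.5, 11.4 and 11.2 CPM with mannose, against 0.438, 0.522 and 0.280 CPM on the normal diet.

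The falls were those of Hsd3b5, Susd4, Serpina1e, Dct, Slc13a2, Capn8, Clec2h, Selenbp2, Lrtm1 and Pitx3, with log2 fold changes from -9.15 to -4.19. Dct, dopachrome tautomerase, best known from pigment cells, fell from 12.8, 12.0 and 12.8 CPM to 0.0968, 0.131 and 0.176 CPM, with FAT-MASH at 1.49, 3.54 and 3.89 CPM. Slc13a2, a dicarboxylate transporter, fell from 12.5, 7.16 and 13.1 CPM to 0.0484, 0.0875 and 0.317 CPM, with FAT-MASH at 0.420, 1.11 and 0.338 CPM. For Dct the direct test placed the mannose group below FAT-MASH (log2 fold change -4.39 ± 0.72, adjusted p = 0.000414), while for Slc13a2 that difference did not pass (log2 fold change -1.92 ± 0.74, adjusted p = 0.0895). Serpina1e, which encodes an alpha-1-antitrypsin, shares reads with near-identical neighbours, and reads that align to several places were not counted, so its level is uncertain.

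Cholesterol synthesis was the list with the largest share of members lower. All but 1 of its 23 genes fell, each of the 22 kept its call without each library in turn and under library totals 22 were lower too, and the median log2 fold change was -2.08. FAT-MASH alone had 22 of 23 lower with a median of -2.32, and the direct test found 4 genes higher and 2 lower with mannose than without. Hmgcs1 (chr13:120151915-120169796, GRCm39), which makes the first committed intermediate of the pathway, was counted at 764, 725 and 982 CPM on the normal diet, 131, 137 and 110 in FAT-MASH and 161, 130 and 142 with 20% mannose. All 6 libraries of the regimen lay far below the normal diet, and the log2 fold change of the mannose group was -2.51 ± 0.17 (adjusted p = 8.14e-09). Its promoter is shown because it holds the letters of the sterol regulatory element, the site through which SREBP2 raises these genes when sterols are scarce. The 250 bases before the start come from RefSeq (GRCm38.p6, chr13:119690101-119690350, plus strand), written 5′ to 3′ with the match to TCACNCCAC, searched on both strands, in capitals.

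Hmgcs1: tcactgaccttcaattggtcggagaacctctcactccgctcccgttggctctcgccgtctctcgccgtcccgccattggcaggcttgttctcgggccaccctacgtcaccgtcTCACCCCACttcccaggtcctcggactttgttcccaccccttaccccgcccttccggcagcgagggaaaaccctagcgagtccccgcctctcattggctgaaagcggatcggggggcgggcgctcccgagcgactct

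Hmgcs1 was the only one of the 17 list members with a RefSeq promoter that held this match (5.88%), against 1.22% of 27025 genes with promoters of the same length. The match is a description of letters and was not tested as a site.

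The falls of Sqle and Msmo1, which act later in the pathway, were steeper than that of Hmgcs1. Sqle (chr15:59186926-59203041, GRCm39), squalene epoxidase, was counted at 121, 123 and 140 CPM on the normal diet, 4.14, 5.93 and 6.45 in FAT-MASH and 6.63, 8.47 and 9.05 with 20% mannose. Its log2 fold change was -3.99 ± 0.26 (adjusted p = 6.54e-09), which is 15.9-fold lower. Msmo1, a sterol demethylase, stood at 432, 365 and 498 CPM against 30.9, 31.6 and 32.2 CPM, a log2 fold change of -3.77 ± 0.17.

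Cholesterol uptake, storage and efflux genes moved in both directions, with 8 of 16 higher and 4 lower (12 higher and 2 lower under library totals). The exporter Abcg1 and the ubiquitin ligase Mylip, both targets of the oxysterol receptors, rose with log2 fold changes of 1.51 ± 0.28 and 1.29 ± 0.20. Nceh1, which releases cholesterol from its stored esters, stood at 30.6, 24.6 and 29.0 CPM on the normal diet, 36.1, 44.7 and 46.0 in FAT-MASH and 86.5, 67.8 and 59.8 with 20% mannose. It was the highest with mannose in every library, also against FAT-MASH (log2 fold change 0.76 ± 0.16, adjusted p = 0.00258). Scarb1, the receptor for high-density lipoprotein, lay at 180, 205 and 191 CPM on the normal diet and at 230, 211 and 212 CPM with 20% mannose (95% interval of the log2 fold change -0.08 to 0.45), where FAT-MASH lay at 361, 365 and 401 CPM.

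Fat synthesis genes did not move as 1 block. Of 22 lipogenesis genes, 8 were higher while 7 were lower, and the median was -0.13. Scd1, the desaturase that makes oleate, was counted at 7260, 8923 and 5002 CPM on the normal diet, 15829, 27519 and 21142 in FAT-MASH and 27667, 24441 and 24375 with 20% mannose, and rose with a log2 fold change of 1.85 ± 0.20 (adjusted p = 1.07e-06). Scd2, its relative, rose with a log2 fold change of 2.55 ± 0.28 and was higher than in FAT-MASH as well (log2 fold change 1.23 ± 0.27, adjusted p = 0.00366). Acss2, which makes acetyl-CoA from acetate, Agpat2 and Dgat2, enzymes of glyceride assembly, and Mlxipl, which encodes the sugar-sensing factor ChREBP, fell with log2 fold changes of -1.98 ± 0.20, -1.26 ± 0.13, -1.03 ± 0.12 and -1.12 ± 0.20. Fasn, fatty acid synthase, did not pass (872, 1077 and 1204 CPM against 935, 669 and 1226 CPM, 95% interval of the log2 fold change -0.76 to 0.45), nor did Srebf1, the factor that drives lipogenesis (95% interval of the log2 fold change -0.67 to 0.63).

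Genes of fat uptake and storage leaned upward, with 11 of 22 higher and 2 lower and a median of 0.44. Lpl, lipoprotein lipase, was counted at 30.4, 51.0 and 30.8 CPM on the normal diet, 345, 309 and 285 in FAT-MASH and 184, 195 and 314 with 20% mannose, a log2 fold change of 2.63 ± 0.29 (adjusted p = 1.78e-06). Cd36, a fatty acid transporter, rose from 89.8, 80.0 and 37.0 CPM to 249, 277 and 237 CPM. Fitm1, a fat storage-inducing protein, fell from 105, 82.3 and 46.5 CPM to 6.87, 5.12 and 5.33 CPM, and Lipe, hormone-sensitive lipase, fell with a log2 fold change of -1.30 ± 0.15. The droplet lipase Pnpla2 (95% interval of the log2 fold change -0.13 to 0.36) and its partner Plin5 (-0.34 to 0.20) did not pass.

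Fatty acid oxidation genes rose in part, 14 of 26 higher and 4 lower, with 19 higher and 1 lower under library totals. The steepest was Cyp4a14 (chr4:115343397-115353339, GRCm39), an omega-hydroxylase and a target of the receptor PPAR alpha, at 67.0, 47.0 and 39.3 CPM on the normal diet, 716, 307 and 285 in FAT-MASH and 1902, 1714 and 1420 with 20% mannose. Every mannose library was above every other one, with a log2 fold change of 5.04 ± 0.43 from the normal diet and 1.94 ± 0.37 from FAT-MASH (adjusted p = 7.89e-08 and 0.00144). Ehhadh, the bifunctional enzyme of peroxisomal oxidation, stood at 373, 359 and 315 CPM, 806, 797 and 607 CPM and 1823, 1976 and 1402 CPM in the same order and was likewise above FAT-MASH (log2 fold change 1.23 ± 0.19, adjusted p = 0.000259). The thioesterase genes Acot2 and Acot1 rose with log2 fold changes of 2.94 ± 0.21 and 1.75 ± 0.22. These Cyp4a and Acot genes have close copies, so their levels are uncertain to the extent that shared reads were dropped. Ppara itself rose with a log2 fold change of 0.79 ± 0.24 (adjusted p = 0.0143), but the call was lost without normal diet replicate 3 (adjusted p = 0.0932) and without 20% mannose replicate 1 (adjusted p = 0.0632).

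The genes that break down fructose were not among those called higher in the mannose group. None of 12 rose and 5 fell, with a median of -0.31, and under library totals 2 were higher and 4 lower. FAT-MASH alone had 4 higher and none lower, and against FAT-MASH the mannose group had 9 lower and none higher. Khk (chr5:31078775-31088592, GRCm39), ketohexokinase, which takes the first step, was counted at 447, 491 and 561 CPM on the normal diet, 809, 834 and 838 in FAT-MASH and 392, 392 and 336 with 20% mannose. All 3 mannose libraries lay below the normal diet and far below FAT-MASH, and the difference from the normal diet did not pass (95% interval of the log2 fold change -0.78 to -0.06, adjusted p = 0.0651), while that from FAT-MASH did (log2 fold change -1.15 ± 0.17, adjusted p = 0.000197). For Tkfc, the triokinase of the third step, the 95% interval of the difference from the normal diet was 0.04 to 0.67, and for Slc2a2, the main hepatocyte sugar transporter, it was -0.20 to 0.39. The intervals leave room for differences of the size of their bounds, so equal levels were not shown. The fructose transporter Slc2a5 fell below both other groups, from 6.58, 6.24 and 4.83 CPM on the normal diet and 5.23, 6.59 and 8.11 CPM in FAT-MASH to 1.43, 1.01 and 2.47 CPM. Gckr, the regulator of glucokinase, fell from 253, 279 and 321 CPM to 165, 137 and 169 CPM (log2 fold change -0.86 ± 0.13, adjusted p = 4.18e-05).

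Gluconeogenesis genes fell more than they rose, with 6 of 13 lower and 2 higher, where FAT-MASH alone had 6 higher and 2 lower. Against FAT-MASH, 10 of the 13 were lower with mannose and none higher. Pck1, the cytosolic carboxykinase that controls the pathway, did not pass against the normal diet (806, 1018 and 1112 CPM against 750, 768 and 627 CPM, 95% interval of the log2 fold change -0.97 to 0.06), and FAT-MASH lay at 2008, 996 and 2414 CPM. Got1 and Sds, which feed carbon from aspartate and serine, fell with log2 fold changes of -2.12 ± 0.25 and -2.13 ± 0.31. Pck2, the mitochondrial isoform and a target of ATF4, rose from 5.26, 6.22 and 5.42 CPM to 20.9, 20.4 and 18.5 CPM (log2 fold change 1.82 ± 0.13, adjusted p = 1.47e-08). Among 19 glycolysis genes, 8 were higher and 3 lower. Those that rose include Pkm and Pfkp, isoforms common in dividing and non-hepatocyte cells, with log2 fold changes of 1.09 ± 0.22 and 1.09 ± 0.22, while the liver isoform Pklr, pyruvate kinase, did not pass (133, 175 and 143 CPM against 178, 175 and 175 CPM, 95% interval of the log2 fold change -0.21 to 0.66).

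The enzymes that use mannose were called about as often as all genes tested. Of 17 genes that make mannose and fucose sugar nucleotides, 2 rose (11.8%, against 18.2% of all genes) and 4 fell (23.5%, against 15.1%), with a median of -0.04, and under library totals 5 rose and 3 fell. Mpi, which links mannose to glycolysis, was counted at 14.7, 13.7 and 17.1 CPM on the normal diet, 11.7, 8.45 and 9.32 in FAT-MASH and 15.0, 15.1 and 14.4 with 20% mannose. The mannose group overlapped the normal diet (95% interval of the log2 fold change -0.34 to 0.28) and was above FAT-MASH (log2 fold change 0.59 ± 0.15, adjusted p = 0.0107). Pmm2, which leads mannose to glycoproteins, fell from 58.6, 64.9 and 72.0 CPM to 43.7, 41.6 and 43.7 CPM (log2 fold change -0.60 ± 0.10, adjusted p = 8.94e-05). Gfpt1, the first enzyme of the hexosamine route, rose from 25.4, 35.3 and 34.1 CPM to 48.5, 60.3 and 51.9 CPM and was above FAT-MASH too (log2 fold change 0.80 ± 0.14, adjusted p = 0.000565). The fall of Pmm1 (log2 fold change -1.48 ± 0.42) was lost without normal diet replicate 1 (adjusted p = 0.0573).

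**Figure D3:**
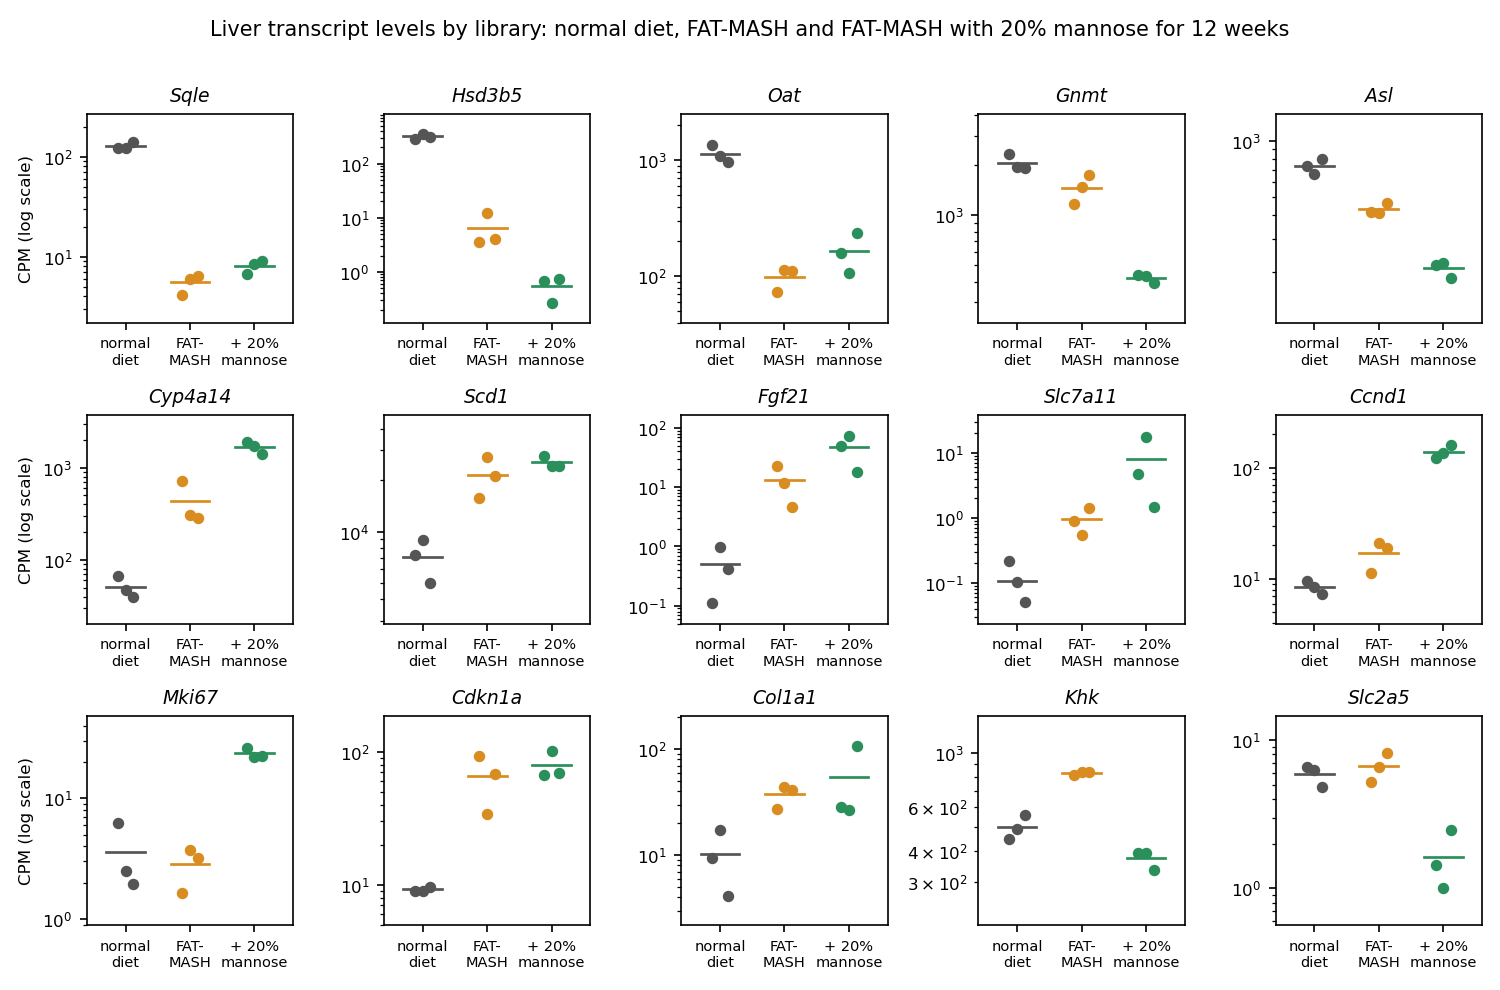
Levels of 15 genes in each of 9 libraries, as CPM on a log scale, for the normal diet (grey), FAT-MASH (orange) and FAT-MASH with 20% mannose (green), with the group mean as a line. The Slc7a11 library at 0 CPM is drawn at 0.05. Sqle and Oat are low in all 6 libraries of the regimen, Ccnd1 and Mki67 are high in the 3 mannose libraries, Khk is highest in FAT-MASH, and Slc2a5 is lowest in the 3 mannose libraries.

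Amino acid breakdown genes were lower almost throughout. Of 26 genes, 24 fell and none rose, for a median log2 fold change of -0.95. All 24 kept their call without each library in turn, and 22 fell under library totals. FAT-MASH alone had 9 of 26 lower, and against FAT-MASH the mannose group had 24 lower and 1 higher. Gnmt (chr17:47036590-47040094, GRCm39), which uses up the methyl donor S-adenosylmethionine, was counted at 2327, 1968 and 1934 CPM on the normal diet, 1164, 1483 and 1741 in FAT-MASH and 438, 434 and 394 with 20% mannose. The 3 mannose libraries were close together and below every other library, with a log2 fold change of -2.30 ± 0.18 from the normal diet and -1.79 ± 0.18 from FAT-MASH (adjusted p = 3.07e-08 and 6.09e-06). Agxt, which removes glyoxylate, fell from 349, 378 and 376 CPM to 73.0, 54.1 and 81.8 CPM (log2 fold change -2.40 ± 0.20). Prodh, Cth and Haao, of proline, cysteine and tryptophan metabolism, fell with log2 fold changes of -2.14 ± 0.15, -1.91 ± 0.15 and -1.39 ± 0.12. The genes not passing were Bckdha of branched-chain breakdown (95% interval of the log2 fold change -0.81 to -0.08) and Tdo2 of tryptophan breakdown (-0.80 to -0.06).

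Most hepatocyte genes of both lobule zones fell. Of 17 periportal genes, 12 fell and 2 rose, and their summed level was 11430 to 12940 CPM on the normal diet, 9528 to 12170 CPM in FAT-MASH and 6595 to 7642 CPM with 20% mannose, ranges that do not overlap between the mannose group and the others. Asl (chr5:130040099-130058088, GRCm39), argininosuccinate lyase of the urea cycle, was counted at 732, 667 and 802 CPM on the normal diet, 415, 411 and 464 in FAT-MASH and 218, 224 and 184 with 20% mannose, lowest in all 3 mannose libraries. Its log2 fold change was -1.81 ± 0.14 from the normal diet and -1.04 ± 0.14 from FAT-MASH (adjusted p = 3.06e-08 and 7.18e-05). The other urea cycle genes Ass1 and Arg1 fell with log2 fold changes of -1.82 ± 0.19 and -1.34 ± 0.14, and Gls2, the glutaminase that supplies ammonia to the cycle, with one of -2.02 ± 0.18. Igfals, which keeps insulin-like growth factor in the circulation, fell from 162, 140 and 169 CPM to 39.1, 40.4 and 29.3 CPM.

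Of 18 pericentral genes, 11 fell and 5 rose, and the summed level, in which Cyp2e1 is the most abundant gene, was 9928 to 11660 CPM on the normal diet, 6951 to 7558 CPM in FAT-MASH and 4876 to 6055 CPM with 20% mannose. By the direct test against FAT-MASH, 4 of the 18 were higher and 2 lower, with a median of 0.00, so the gene counts do not follow the sum. The 5 that rose, named after their values were seen, were Axin2, Rnf43 and Znrf3, feedback inhibitors of the Wnt signal, the ectonucleotidase Nt5e and the aryl hydrocarbon receptor Ahr, and 3 rose without normal diet replicate 3 or without 20% mannose replicate 3. Oat, ornithine aminotransferase, was counted at 1350, 1084 and 973 CPM on the normal diet, 73.7, 114 and 111 in FAT-MASH and 159, 107 and 236 with 20% mannose (log2 fold change -2.76 ± 0.33, adjusted p = 3.60e-06). Glul, glutamine synthetase, a defining enzyme of the last cells before the central vein, stood at 1102, 1096 and 889 CPM, 306, 340 and 294 CPM and 460, 470 and 371 CPM in the same order. For both genes the difference between the mannose group and FAT-MASH did not pass (adjusted p = 0.119 and 0.0994). Cyp2e1, which activates carbon tetrachloride, fell from 6456, 5915 and 5406 CPM to 2889, 2061 and 2617 CPM and was also below FAT-MASH (log2 fold change -0.89 ± 0.17, adjusted p = 0.0014). The Wnt-dependent genes Tbx3 and Notum did not pass (95% intervals of the log2 fold change 0.12 to 1.17 and -0.81 to -0.08).

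Of 21 cytochromes and their receptors, 13 fell (61.9%, against 15.1% of all genes) and 3 rose (14.3%, against 18.2%). None of the 3 higher kept its call without each library. Cyp2c50 fell from 1295, 1124 and 1266 CPM to 201, 163 and 149 CPM, and Cyp2c54 and Cyp2d9 fell with log2 fold changes of -3.70 ± 0.33 and -2.50 ± 0.25. Reads shared among these Cyp2 copies were not counted, so their levels are uncertain. Cyp3a11, a main drug-metabolizing cytochrome, did not pass (95% interval of the log2 fold change -0.23 to 0.52), while Nr1i3, the xenobiotic receptor CAR, fell with a log2 fold change of -0.98 ± 0.21. Of 21 conjugation enzymes, 9 fell (42.9%, against 15.1% of all genes) and 3 rose (14.3%, against 18.2%). There were 5 higher under library totals and without 20% mannose replicate 3. There were 2 higher without any 1 of normal diet replicates 2 and 3 and 20% mannose replicates 1 and 2. Sult2a8, a bile acid sulfotransferase of mice, fell from 1188, 1131 and 1321 CPM to 224, 141 and 171 CPM, and Gstm3, a glutathione transferase, rose from 179, 158 and 129 CPM to 1115, 1327 and 477 CPM.

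Of 22 genes that make and move bile acids, 12 fell and 2 rose (5 under library totals), with a median of -0.53, where FAT-MASH alone had 4 lower and 1 higher. Cyp8b1, which sets the share of cholic acid, was counted at 673, 600 and 421 CPM on the normal diet, 205, 344 and 257 in FAT-MASH and 143, 109 and 114 with 20% mannose (log2 fold change -2.21 ± 0.38, adjusted p = 0.000184). Slc10a1, which takes bile acids up from blood, stood at 577, 589 and 689 CPM, 531, 591 and 556 CPM and 258, 202 and 220 CPM, and the receptor FXR, encoded by Nr1h4, and its target Nr0b2 fell with log2 fold changes of -0.68 ± 0.10 and -1.61 ± 0.22. For Slc10a1 only the mannose libraries were low, and it was below FAT-MASH (log2 fold change -1.30 ± 0.17, adjusted p = 5.30e-05). Abcb4, the phospholipid exporter of bile, rose from 274, 282 and 250 CPM to 711, 638 and 552 CPM. Cyp7a1, the rate-limiting enzyme of bile acid synthesis, did not pass (95.4, 56.6 and 67.7 CPM against 135, 75.5 and 157 CPM, 95% interval of the log2 fold change 0.13 to 1.35). It was called higher without normal diet replicate 1 (adjusted p = 0.0313) and without 20% mannose replicate 2 (adjusted p = 0.0143).

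Genes that growth hormone keeps high in male mouse liver were among the steepest falls. Of 19 male-biased genes, 14 fell and none rose (1 rose under library totals and without 20% mannose replicate 3), with a median of -2.36, and FAT-MASH alone had 14 lower with a median of -1.59. Hsd3b5 (chr3:98525950-98537568, GRCm39), a steroid dehydrogenase of male liver, was counted at 291, 356 and 313 CPM on the normal diet, 3.55, 12.0 and 3.97 in FAT-MASH and 0.677, 0.263 and 0.723 with 20% mannose. The 3 mannose libraries were all below 1 CPM and below FAT-MASH, with log2 fold changes of -9.15 ± 0.67 from the normal diet and -3.51 ± 0.62 from FAT-MASH (adjusted p = 1.45e-08 and 0.000757). Susd4 fell with a log2 fold change of -6.69 ± 0.46, and Cyp7b1, an oxysterol hydroxylase, with one of -3.54 ± 0.30. Not every member was called, since Mup20, a urinary pheromone protein, lay at 4850, 6408 and 6123 CPM and 5108, 5818 and 5003 CPM (95% interval of the log2 fold change -0.51 to 0.26), and C6 and Egfr did not pass either. Without 20% mannose replicate 1, Egfr was called lower (log2 fold change -1.27, adjusted p = 0.0215). Of 14 female-biased genes tested, 7 rose and 2 fell, but without a normal-diet replicate 3 or 4 rose, without 20% mannose replicate 3 only 3 rose, and under library totals 8 rose and none fell. Cyp2a4, a steroid hydroxylase of female liver, rose from 6.14, 2.98 and 1.78 CPM to 161, 173 and 104 CPM, with FAT-MASH at 44.6, 13.5 and 18.1 CPM, and shares reads with its copy Cyp2a5. Stat5b, the factor that carries the growth hormone signal, fell with a log2 fold change of -0.39 ± 0.11 (adjusted p = 0.00776), a call lost under library totals.

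Factors that define hepatocytes moved in both directions. Of 21, 6 fell (28.6%, against 15.1% of all genes) and 2 rose (9.52%, against 18.2%; 1 without normal diet replicate 3 or 20% mannose replicate 1), and under library totals 2 fell and 6 rose, so the direction of this list turns with the scaling. Hnf4a, the central factor of hepatocyte identity, was counted at 560, 546 and 475 CPM on the normal diet and 630, 657 and 515 CPM with 20% mannose (95% interval of the log2 fold change -0.03 to 0.41). Foxa3, a forkhead factor, rose with a log2 fold change of 0.85 ± 0.15, and Cebpa fell with a log2 fold change of -0.51 ± 0.13 (adjusted p = 0.00629), which did not pass under library totals.

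Most complement and coagulation genes, whose proteins hepatocytes secrete, fell. Of 29, 21 fell and 1 rose (2 without 20% mannose replicate 3), with a median of -0.59, and 16 fell and 4 rose under library totals. F11, coagulation factor XI, was counted at 79.0, 118 and 84.3 CPM on the normal diet, 53.9, 63.8 and 71.6 in FAT-MASH and 26.1, 24.1 and 27.4 with 20% mannose, lowest in the 3 mannose libraries (log2 fold change -1.86 ± 0.19, adjusted p = 6.79e-07). C8b, of the complement pore, fell with a log2 fold change of -2.04 ± 0.19, Proc, anticoagulant protein C, with one of -0.93 ± 0.11, and C3, the central complement protein, did not pass (95% interval of the log2 fold change 0.00 to 0.49). Of 24 acute phase genes, 5 rose (20.8%, against 18.2% of all genes) and 9 fell (37.5%, against 15.1%), and under library totals 9 rose and 6 fell. Against FAT-MASH 1 was higher and 12 were lower with mannose. Lcn2, which binds bacterial siderophores, rose from 1.42, 1.51 and 3.15 CPM to 39.3, 73.3 and 68.1 CPM, with FAT-MASH at 22.8, 19.7 and 39.9 CPM, and Il1rn, the interleukin-1 receptor antagonist, rose with a log2 fold change of 3.59 ± 0.38. Saa4, the constitutive serum amyloid, fell with a log2 fold change of -1.40 ± 0.15, and haptoglobin, encoded by Hp, did not pass (95% interval of the log2 fold change -0.39 to 0.32).

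The cell cycle list set the mannose group apart from both other groups. Of 36 genes, 25 rose and none fell, the median log2 fold change being 2.26, and 23 kept their call without each library. FAT-MASH alone had 2 higher and 1 lower, and against FAT-MASH the mannose group had 25 higher and none lower. Ccnd1 (chr7:144483668-144493662, GRCm39), cyclin D1, which carries hepatocytes out of rest, was counted at 9.64, 8.41 and 7.34 CPM on the normal diet, 11.2, 21.2 and 19.0 in FAT-MASH and 123, 137 and 159 with 20% mannose. The lowest mannose library was far above the highest of the other 6, with log2 fold changes of 4.04 ± 0.31 from the normal diet and 3.03 ± 0.29 from FAT-MASH (adjusted p = 2.15e-08 and 5.67e-06). Mki67, the proliferation antigen Ki-67, stood at 6.27, 2.51 and 1.96 CPM, 1.64, 3.72 and 3.21 CPM and 26.0, 22.2 and 22.6 CPM in the same order (log2 fold change 2.71 ± 0.48 from the normal diet, adjusted p = 0.000253). Top2a, the topoisomerase of dividing cells, rose from 2.25, 1.18 and 1.05 CPM to 11.5, 13.4 and 11.3 CPM.

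The mitotic kinase Cdk1, its partner cyclin B1, encoded by Ccnb1, and the ubiquitin carrier Ube2c, which helps to end mitosis, rose from low levels. Cdk1 was counted at 1.64, 2.09 and 1.40 CPM on the normal diet, 4.27, 3.66 and 4.28 in FAT-MASH and 11.0, 10.9 and 9.14 with 20% mannose (log2 fold change 2.59 ± 0.28 from the normal diet, adjusted p = 1.20e-06). Ccnb1 stood at 0.110, 0 and 0.210 CPM, 0.267, 0.240 and 0.282 CPM and 6.24, 5.03 and 5.31 CPM. Ube2c stood at 1.15, 0.836 and 0.559 CPM, 0.668, 0.479 and 0.845 CPM and 11.8, 9.96 and 7.57 CPM. In all 3 genes every mannose library was above every other library, and each was above FAT-MASH by the direct test (log2 fold changes 1.34 ± 0.26, 4.37 ± 0.60 and 3.87 ± 0.42). Genes not passing were Pcna, the replication clamp (95% interval of the log2 fold change 0.01 to 0.62), and the kinases Cdk4 (-0.04 to 0.38) and Cdk2 (-0.32 to 0.26). The levels are of whole liver, and which cells held these transcripts was not tested.

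The promoters of these 3 mitotic genes are shown because they share the CCAAT box, which the factor NF-Y binds in many genes of mitosis. Each is the 250 bases before the start from RefSeq (GRCm38.p6), 5′ to 3′ on the gene's strand, with CCAAT on either strand (ATTGG when read on the other) in capitals. Cdk1 is at chr10:69352913-69353162 (minus strand), Ube2c at chr2:164769679-164769928 (plus strand) and Ccnb1 at chr13:100786487-100786736 (minus strand).

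Cdk1: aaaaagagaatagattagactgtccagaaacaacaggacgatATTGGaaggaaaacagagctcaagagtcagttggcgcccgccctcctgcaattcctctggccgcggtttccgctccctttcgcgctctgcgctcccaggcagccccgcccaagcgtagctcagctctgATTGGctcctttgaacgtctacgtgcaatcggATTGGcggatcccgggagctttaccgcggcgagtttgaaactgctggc
Ube2c: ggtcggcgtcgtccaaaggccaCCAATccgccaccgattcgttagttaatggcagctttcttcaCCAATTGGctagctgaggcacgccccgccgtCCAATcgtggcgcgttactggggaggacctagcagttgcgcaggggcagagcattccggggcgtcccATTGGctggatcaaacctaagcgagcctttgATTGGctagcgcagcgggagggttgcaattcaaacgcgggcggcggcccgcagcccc
Ccnb1: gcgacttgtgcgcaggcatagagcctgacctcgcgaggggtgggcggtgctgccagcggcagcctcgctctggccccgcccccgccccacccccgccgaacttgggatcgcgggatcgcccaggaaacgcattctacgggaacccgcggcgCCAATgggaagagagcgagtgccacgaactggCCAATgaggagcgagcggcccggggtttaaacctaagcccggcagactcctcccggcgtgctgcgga

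Cdk1 holds 3 matches, Ube2c 6, of which a pair on opposite strands overlaps, and Ccnb1 2. Of 29 cell cycle genes with a RefSeq promoter, 24 held CCAAT (82.8%), against 37.5% of all 27025 genes with promoters of this length. Of the 24 holders, 18 were higher in the mannose group and 6 were not called, Cdk2 and Pcna among these 6.

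Targets of the damage-activated factor p53 were higher in both regimens. Of 22, 18 rose and 2 fell in the mannose group (1 fell under library totals, without normal diet replicate 1 or 2 and without 20% mannose replicate 1 or 2), with a median of 0.91, and in FAT-MASH alone 13 rose and 2 fell. Cdkn1a, the cell cycle inhibitor p21, was counted at 9.01, 8.99 and 9.69 CPM on the normal diet, 93.3, 34.4 and 68.5 in FAT-MASH and 66.6, 102 and 69.2 with 20% mannose (log2 fold change 3.11 ± 0.36, adjusted p = 2.70e-06). The 2 regimens overlapped, and the direct difference did not pass (log2 fold change 0.28 ± 0.33, adjusted p = 0.641). Eda2r, which encodes a receptor, stood at 0.384, 0.157 and 0.140 CPM on the normal diet and 10.2, 10.4 and 11.9 CPM in FAT-MASH and was higher with mannose, with a log2 fold change from the normal diet of 5.71 ± 0.43 (adjusted p = 2.00e-08). Zmat3 rose with a log2 fold change of 1.71 ± 0.18 and Tnfrsf10b, a receptor for TRAIL, with one of 3.32 ± 0.37. The rise of Gdf15 (log2 fold change 0.92 ± 0.25) was lost without normal diet replicate 3 (adjusted p = 0.0505).

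Of 20 genes linked with fetal or injured liver, 13 rose and 0 fell, with a median of 1.95. Ly6d, a surface protein, was counted at 2.58, 1.67 and 1.26 CPM on the normal diet, 31.9, 65.1 and 89.7 in FAT-MASH and 95.6, 115 and 114 with 20% mannose. Peg10, an imprinted gene, stood at 1.32, 1.62 and 1.82 CPM, 3.47, 2.94 and 2.54 CPM and 17.5, 14.3 and 13.2 CPM, with the mannose libraries above all others (log2 fold change 3.24 ± 0.24 from the normal diet and 2.32 ± 0.22 from FAT-MASH, adjusted p = 1.44e-08 and 5.67e-06). The annexin genes Anxa2 and Anxa5 rose with log2 fold changes of 2.49 ± 0.27 and 1.73 ± 0.16. Afp, the alpha-fetoprotein of fetal liver, did not pass (3.45, 2.25 and 4.44 CPM against 4.62, 3.30 and 4.73 CPM, 95% interval of the log2 fold change -0.23 to 0.88). H19, an imprinted noncoding RNA, was at 4.33, 28.3 and 40.1 CPM in FAT-MASH but at 0.411, 0.350 and 2.36 CPM with 20% mannose, against 0, 0.209 and 0.140 CPM on the normal diet. Its difference from the normal diet did not pass (adjusted p = 0.0637), and it lay below FAT-MASH (log2 fold change -4.49 ± 0.95, adjusted p = 0.00291).

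The integrated stress response, through which ATF4 raises genes of amino acid supply, was higher in 15 of 22 genes and lower in 2, with a median of 1.02. FAT-MASH alone had 11 higher and 2 lower, and against FAT-MASH the mannose group had 10 higher and 1 lower. Fgf21 (chr7:45263310-45264914, GRCm39), a hormone that the stressed or fasted liver secretes, was counted at 0.110, 0.993 and 0.420 CPM on the normal diet, 23.1, 11.5 and 4.70 in FAT-MASH and 50.0, 73.4 and 17.9 with 20% mannose. It was above the normal diet in every library of both regimens, with a log2 fold change of 6.50 ± 0.69 for the mannose group (adjusted p = 8.79e-07) and 1.83 ± 0.49 against FAT-MASH (adjusted p = 0.0156), where 1 mannose library lay within the FAT-MASH range. Psat1 of serine synthesis rose from 0.877, 0.731 and 0.979 CPM to 14.0, 19.6 and 8.25 CPM and Aldh18a1 of proline synthesis from 1.21, 1.41 and 0.979 CPM to 13.2, 14.2 and 9.44 CPM. Asns, asparagine synthetase, a standard target of ATF4, did not pass, at 13.6, 24.6 and 2.52 CPM and 7.55, 7.62 and 3.99 CPM (95% interval of the log2 fold change -2.12 to -0.07). Without normal diet replicate 3, Asns was called lower (log2 fold change -1.60, adjusted p = 0.00238). Ddit3, which encodes the death-linked factor CHOP, did not pass either (95% interval of the log2 fold change -0.13 to 1.00).

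Fgf21 and Asns are shown together because both promoters hold the letters TGATGNAAN of the amino acid response element, searched on both strands, while their levels differed in outcome. They are the 250 bases before the start from RefSeq (GRCm38.p6), 5′ to 3′, Fgf21 at chr7:45615491-45615740 and Asns at chr6:7693210-7693459, both on the minus strand, with the match in capitals.

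Fgf21: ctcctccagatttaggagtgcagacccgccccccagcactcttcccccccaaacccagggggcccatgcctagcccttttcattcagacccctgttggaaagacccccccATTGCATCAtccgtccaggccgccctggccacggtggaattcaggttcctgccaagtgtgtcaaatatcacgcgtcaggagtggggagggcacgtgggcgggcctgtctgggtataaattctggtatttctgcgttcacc
Asns: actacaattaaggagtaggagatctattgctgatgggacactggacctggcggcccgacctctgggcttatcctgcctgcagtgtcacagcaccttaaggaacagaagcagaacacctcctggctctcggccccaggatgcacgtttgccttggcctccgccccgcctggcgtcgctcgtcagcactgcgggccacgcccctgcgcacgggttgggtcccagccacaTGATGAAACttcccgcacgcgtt

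This match was held by 7 of the 22 list genes with a promoter (31.8%) and by 3.89% of all 27025 genes with a promoter. Of the 7 genes, 4 were higher in the mannose group and 3 were not called.

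Targets of the oxidant sensor NRF2 were higher in 12 of 18 cases and lower in none, with a median of 0.95, where FAT-MASH alone had 1 higher. The 3 mannose livers differed among themselves. Slc7a11, the cystine importer, was counted at 0.219, 0.104 and 0 CPM on the normal diet, 0.878, 0.539 and 1.41 in FAT-MASH and 4.64, 17.6 and 1.45 with 20% mannose, highest in replicate 2 and lowest in replicate 3. Srxn1, sulfiredoxin, stood at 74.4, 61.5 and 54.7 CPM, 71.9, 72.2 and 96.4 CPM and 212, 464 and 117 CPM with the same order of the mannose replicates. The log2 fold changes from the normal diet were 6.07 ± 0.93 and 2.06 ± 0.38 (adjusted p = 5.87e-05 and 0.000317). Cbr3, a carbonyl reductase, and Hmox1, heme oxygenase, rose with log2 fold changes of 4.53 ± 0.80 and 1.40 ± 0.25, and the ferritin genes Fth1 and Ftl1 did not pass. Over the 18 genes, the median difference from the normal-diet mean, as log2(CPM + 1), was 0.88, 1.47 and 0.27 in mannose replicates 1, 2 and 3.

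Chaperones of the endoplasmic reticulum were lower in 6 of 22 cases and higher in 1 (3 without 20% mannose replicate 3), while FAT-MASH alone had 13 lower and 1 higher. Under library totals 2 were lower and 5 higher, so the direction of this list turns with the scaling. Calr, calreticulin, fell from 917, 986 and 1055 CPM to 549, 573 and 562 CPM (log2 fold change -0.81 ± 0.11, adjusted p = 1.47e-05). Hspa5, the master chaperone BiP, was counted at 823, 1172 and 1035 CPM on the normal diet, 625, 552 and 641 in FAT-MASH and 835, 925 and 879 with 20% mannose (95% interval of the difference from the normal diet -0.54 to 0.14), and it was above FAT-MASH (log2 fold change 0.54 ± 0.16, adjusted p = 0.0317).

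**Figure D4:**
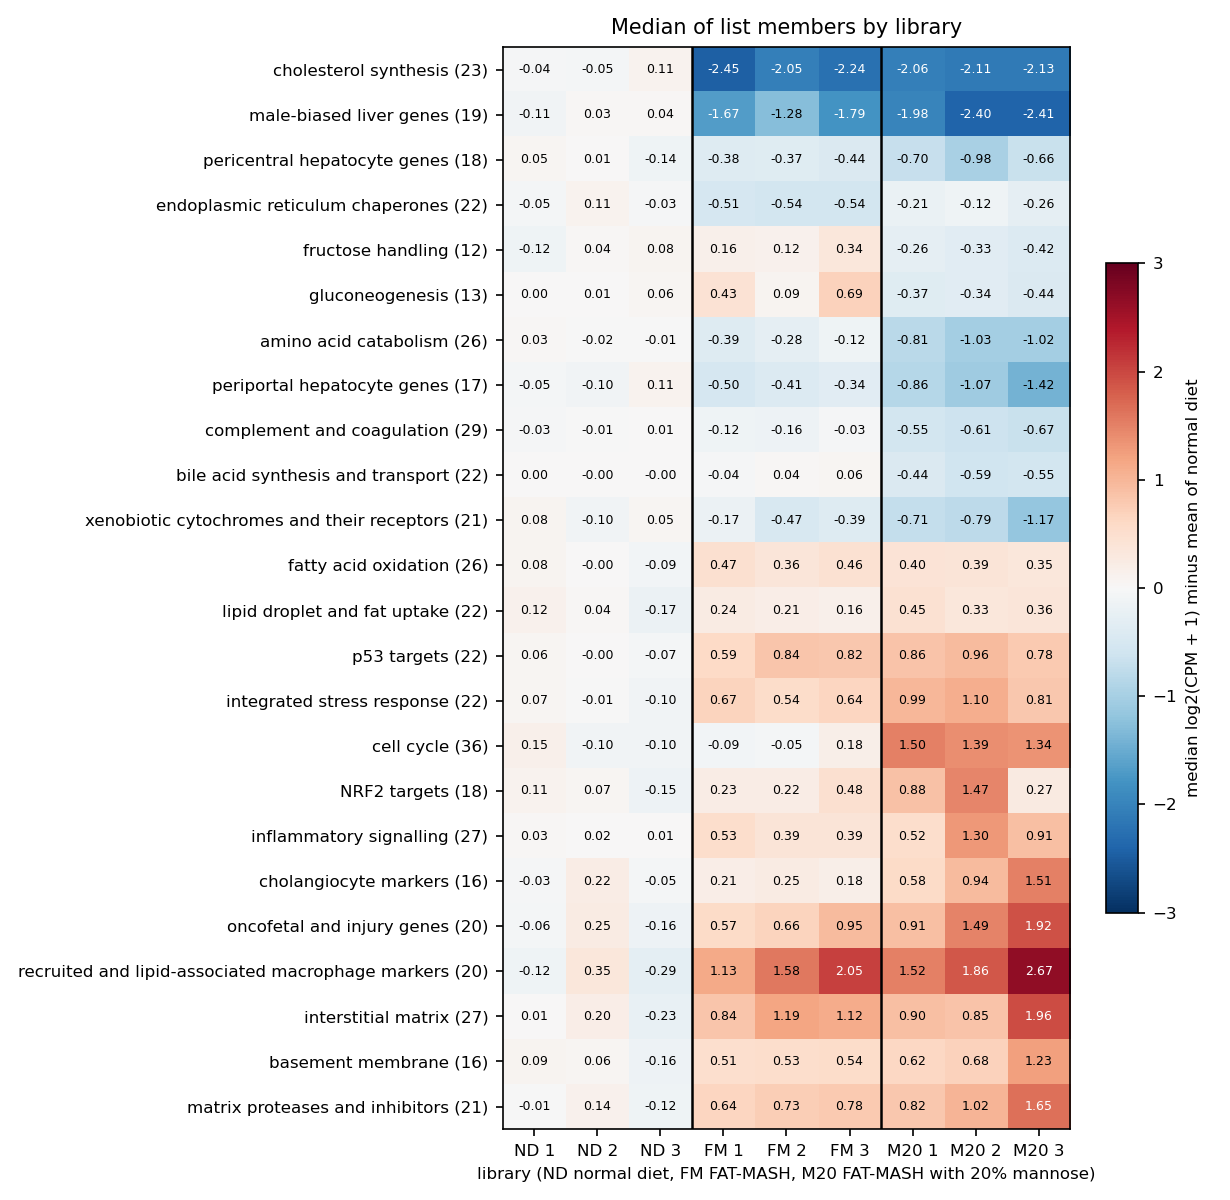
Median over the members of each list of log2(CPM + 1) minus the mean of the 3 normal-diet libraries, for 9 libraries of the normal diet (ND), FAT-MASH (FM) and FAT-MASH with 20% mannose (M20), with the number of members in brackets. The cell cycle row lies at 1.34 to 1.50 in the 3 mannose libraries and at -0.10 to 0.18 in the others, the cholesterol synthesis row is low in all 6 libraries of the regimen, and mannose replicate 3 has the highest medians of matrix, macrophage and cholangiocyte genes.

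Transcripts of scar matrix genes were higher than in healthy liver. Of 27 interstitial matrix genes, 24 rose and none fell, with a median of 1.76, and 17 kept their call without each library. FAT-MASH alone had 16 higher, and against FAT-MASH the mannose group had 1 higher and none lower. Col1a1, the main chain of scar collagen, was counted at 9.40, 17.3 and 4.13 CPM on the normal diet, 27.4, 44.4 and 41.6 in FAT-MASH and 28.6, 26.9 and 108 with 20% mannose. Replicate 3 of the mannose group was far above the other libraries, and the other replicates lay within or at the edge of the FAT-MASH range (log2 fold change from the normal diet 2.40 ± 0.56, adjusted p = 0.0025). Over the list, the median difference from the normal-diet mean was 0.90, 0.85 and 1.96 in mannose replicates 1, 2 and 3. Col5a2 and Col6a3, collagen chains of fibrous and filamentous matrix, rose with log2 fold changes of 2.50 ± 0.39 and 2.14 ± 0.36, and Thbs1, which releases active TGF-beta, with one of 2.59 ± 0.41. Fn1, fibronectin, which hepatocytes make for plasma, did not pass (95% interval of the log2 fold change -0.42 to 0.11).

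Of 16 basement membrane genes, 11 rose and 1 fell. Nid1, nidogen 1, was counted at 14.5, 12.2 and 10.6 CPM on the normal diet, 26.8, 22.9 and 34.6 in FAT-MASH and 56.2, 61.8 and 66.6 with 20% mannose, rising beyond FAT-MASH in every library (log2 fold change 2.30 ± 0.20 from the normal diet and 1.13 ± 0.19 from FAT-MASH, adjusted p = 7.92e-08 and 0.000471). The collagen IV chains Col4a1 and Col4a2 rose with log2 fold changes of 1.36 ± 0.24 and 1.12 ± 0.23. Of 21 matrix proteases and inhibitors, 16 rose and 1 fell, and that fall was called again only without normal diet replicate 3. Timp1, which blocks matrix proteases, stood at 0.164, 0.313 and 0.210 CPM, 1.53, 2.82 and 3.10 CPM and 0.726, 3.06 and 6.77 CPM (log2 fold change 3.92 ± 0.71 from the normal diet, adjusted p = 0.000296). Adamts1 rose from 8.66, 6.84 and 7.03 CPM to 37.8, 35.1 and 36.3 CPM and was above FAT-MASH in every library (log2 fold change 1.50 ± 0.20, adjusted p = 5.66e-05).

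Of 20 stellate cell markers, 11 rose and 1 fell, and their sum was 297.0 to 347.1 CPM on the normal diet, 410.3 to 454.2 CPM in FAT-MASH and 451.8 to 648.5 CPM with 20% mannose. Pdgfra, a growth factor receptor of fibroblasts, rose from 6.41, 6.58 and 5.94 CPM to 17.2, 19.7 and 27.8 CPM (log2 fold change 1.77 ± 0.24, adjusted p = 1.79e-05), and Hgf, the growth factor that stellate cells supply to hepatocytes, from 5.89, 5.38 and 4.93 CPM to 16.1, 19.2 and 15.4 CPM. Acta2, smooth muscle actin, the usual marker of contractile myofibroblasts, did not pass (5.53, 14.0 and 3.78 CPM against 4.33, 8.01 and 9.45 CPM, 95% interval of the log2 fold change -1.15 to 0.95), with normal diet replicate 2 as the highest library. Lrat, a marker of resting stellate cells, did not pass either (95% interval of the log2 fold change -0.30 to 0.38).

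Macrophages that enter injured, fatty liver were represented by 20 markers, of which 16 rose and 1 fell, with a median of 2.01, and in FAT-MASH alone 13 rose. Cd63, a lysosomal tetraspanin, was counted at 2.85, 4.34 and 2.59 CPM on the normal diet, 25.8, 27.9 and 24.4 in FAT-MASH and 25.5, 29.3 and 47.0 with 20% mannose (log2 fold change 3.37 ± 0.30, adjusted p = 1.10e-07). Trem2, a lipid receptor of these cells, stood at 0.658, 3.34 and 0 CPM, 8.45, 14.4 and 20.0 CPM and 7.89, 8.27 and 23.9 CPM (log2 fold change 3.27 ± 0.70), and Gpnmb, a glycoprotein of the same cells, did not pass. In Gpnmb normal diet replicate 2 stood at 42.5 CPM and the others of its group below 1 CPM, and without that replicate the gene was called (log2 fold change 8.14, adjusted p = 6.89e-05). Spp1, osteopontin, made by macrophages and bile duct cells, rose from 37.4, 63.0 and 46.7 CPM to 176, 179 and 465 CPM and was above FAT-MASH (log2 fold change 1.72 ± 0.43, adjusted p = 0.0092). The summed level of the 20 markers did not follow the counts, at 23400 to 25330 CPM on the normal diet, 30610 to 33210 CPM in FAT-MASH and 21500 to 24680 CPM with 20% mannose. The list holds Apoe, an apolipoprotein gene that is not confined to macrophages, so the sum does not measure macrophages alone. Of 14 Kupffer cell markers, 7 rose and 1 fell, with 4 higher without normal diet replicate 2, 4 without normal diet replicate 3 and 3 without 20% mannose replicate 2. Adgre1, the macrophage antigen F4/80, rose from 9.23, 7.16 and 6.71 CPM to 27.0, 37.8 and 44.5 CPM.

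Of 27 genes of inflammatory signalling, 21 rose and 0 fell, with a median of 1.62, where FAT-MASH alone had 9 higher and the direct test 11 higher with mannose. Icam1, an adhesion molecule for leukocytes, was counted at 7.53, 5.93 and 6.82 CPM on the normal diet, 11.7, 16.2 and 14.5 in FAT-MASH and 20.9, 39.1 and 30.1 with 20% mannose, above FAT-MASH in every library (log2 fold change 2.15 ± 0.22 from the normal diet and 1.09 ± 0.21 from FAT-MASH, adjusted p = 5.85e-07 and 0.00143). Relb, a subunit of NF-kappaB, and Cd14, a receptor for bacterial lipopolysaccharide, rose with log2 fold changes of 2.50 ± 0.25 and 2.81 ± 0.36, both highest in mannose replicate 2. Neutrophil markers rose in 6 of 9 cases tested, with a sum of 5.132 to 8.678 CPM on the normal diet, 16.78 to 19.53 CPM in FAT-MASH and 20.93 to 34.82 CPM with 20% mannose. By the direct test against FAT-MASH, 0 of the 9 were higher and 0 lower with mannose. S100a9, a calcium-binding protein of neutrophils, rose from 2.69, 1.93 and 1.54 CPM to 6.00, 12.2 and 7.41 CPM. Of 17 lymphocyte markers tested, 0 rose and 1 fell, Cd4, the coreceptor of helper T cells (3.70, 2.98 and 3.78 CPM against 0.822, 1.18 and 0.635 CPM). Without normal diet replicate 2, 1 rose and 2 fell, and without normal diet replicate 3, 2 fell.

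Of 24 genes of the interferon response and antigen presentation, 15 rose and 1 fell. The count of rises was 6 and 9 without normal diet replicates 2 and 3 and 8 without either 20% mannose replicate 2 or replicate 3. Oas1a, an antiviral sensor, rose from 1.78, 2.72 and 2.13 CPM to 7.57, 8.93 and 9.29 CPM (log2 fold change 1.96 ± 0.29, adjusted p = 3.73e-05), with FAT-MASH at 6.95, 7.01 and 9.86 CPM, and none of the 24 differed between the regimens by the direct test. Of 18 sinusoidal endothelial markers, 7 rose (38.9%, against 18.2% of all genes) and none fell. Without any 1 of the 6 libraries only 3 or 4 were higher, and under library totals 13. Lyve1, a hyaluronan receptor, rose from 5.64, 5.75 and 4.55 CPM to 11.9, 18.6 and 9.98 CPM.

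Of 16 bile duct markers, 10 rose and 1 fell, with a median of 1.46, and all 10 calls of the direct test against FAT-MASH were higher with mannose. Their sum was 571.4 to 599.6 CPM on the normal diet, 534.7 to 608.2 CPM in FAT-MASH and 997.4 to 1566 CPM with 20% mannose. The sum includes Spp1, which macrophages also make, and Krt8, which hepatocytes also make, so it does not measure duct cells alone. Epcam, an adhesion protein of bile duct and progenitor cells, was counted at 1.37, 1.57 and 0.909 CPM on the normal diet, 2.86, 2.70 and 4.17 in FAT-MASH and 8.51, 9.98 and 22.6 with 20% mannose, highest in replicate 3 (log2 fold change 3.40 ± 0.51 from the normal diet and 2.08 ± 0.47 from FAT-MASH, adjusted p = 5.01e-05 and 0.00497). Sox4, a factor of developing ducts, rose with a log2 fold change of 2.46 ± 0.33, and Krt8, a keratin that hepatocytes share, with one of 0.74 ± 0.15. Sox9, the usual marker of ductal fate, did not pass against the normal diet (95% interval of the log2 fold change -0.11 to 0.71).

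Iron and metal genes split, with 7 of 19 higher and 5 lower. The iron sensor Tfr2 and the protease Tmprss6, both regulators of hepcidin, fell with log2 fold changes of -0.77 ± 0.09 and -0.58 ± 0.11, and Id1 and Smad7, targets of the bone morphogenetic protein signal, rose with log2 fold changes of 2.19 ± 0.26 and 1.12 ± 0.16. Trf, transferrin, did not pass (95% interval of the log2 fold change -0.32 to 0.10). Of 18 clock genes, 3 rose (16.7%, against 18.2% of all genes) and 6 fell (33.3%, against 15.1%), and under library totals 5 rose and 3 fell. The output factor Hlf fell with a log2 fold change of -0.77 ± 0.16, and Nr1d2, a clock repressor, rose with a log2 fold change of 1.14 ± 0.17, while Clock itself did not pass. The hour of collection is not given in the sources used here, so its part in the clock genes was not tested.

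Mannose on the normal diet, in the second batch, gave a background for the dose. Of 18462 genes tested between 3 livers with 20% mannose and 2 without, 1 (0.00542%) was higher and 0 (0%) lower by edgeR's quasi-likelihood test, while 551 were higher and 515 lower at an unadjusted p under 0.05, and DESeq2 called 24 higher and 39 lower. The gene called was Slc39a4, a zinc importer, at 48.0 and 47.8 CPM without mannose and 116, 101 and 93.7 CPM with it (log2 fold change 1.11 ± 0.12, adjusted p = 0.0356). Its call was lost when any 1 of the 3 livers with 20% mannose was left out, each of which gave 0 genes called. In the regimen with mannose Slc39a4 was at 129, 136 and 97.6 CPM, against 84.0, 81.3 and 91.8 CPM in FAT-MASH and 61.2, 45.9 and 73.6 CPM on the normal diet of the first batch (log2 fold change 1.00 ± 0.15, adjusted p = 4.96e-05). With 3 livers against 2 this comparison has less power than the others, and whether the mannose effect differs between diets was not tested here.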

How the data were processed

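Liver poly-A RNA of 25 mice in 8 groups was sequenced. Per the submitters' processing notes, the authors used STAR with the GRCm39 build and then featureCounts 2.0.6, whereas the deposited table's header names version 2.0.1 and GENCODE release M31. The deposited table holds whole-number counts that the authors had not normalized, for 56980 genes. The counting command, per the file headers, gives no option for strand or for reads with several alignments, so by default overlapping and antisense genes cannot be told apart and reads shared by near-identical copies were dropped.

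The 18 first-batch libraries were fitted together, with 1 coefficient per group, in edgeR 4.0.16 (R 4.3.3): TMM scaling, filterByExpr, the quasi-likelihood test and Benjamini-Hochberg adjustment over 19571 genes, called at an adjusted p of at most 0.05. The 7 second-batch libraries were fitted separately (18462 genes). A standard error is the absolute log2 fold change divided by the square root of the F statistic. The fit was tested on simulated counts. Alternatives were DESeq2 1.42.0 and limma 3.58.1 voom with sample quality weights, RLE factors, library totals alone, no filter, the compared groups alone, all 25 libraries with a batch term, a replicate block and leaving out each library. Depth limits genes of low count, and p-values measure the spread between mice as the labels name them, with cages not given.

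The comparison, the 44 gene lists and the 35 key genes were chosen with earlier results of these data known. Besides key genes, the text names the 10 steepest rises and falls (mean at least 5 CPM, groups not overlapping, call kept without each library), and per list up to 5 members of smallest p with a kept call and up to 3 not passing with the highest mean. Some genes that this rule names are not reported here. Pancreas and muscle, adipocyte and erythroid markers were lists of other cell types: 0 of 2, 2 of 5 (both lower) and 3 of 8 (1 higher, 2 lower) tested members were called. Replicate numbers did not pair libraries across the groups. Chi-square tests gave at least 21.25 per degree of freedom between libraries of a group, so each counted as a sample. Promoters were the 250 bases before the start in RefSeq's table of GRCm38.p6.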

Additional observations from a re-analysis of the deposited data

How the results depend on the processing

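Across the alternatives 5193 to 7620 genes differed between the 20% mannose group and the normal diet, and none of the named genes that was called changed its direction. Library totals alone gave 5980 higher and 1640 lower genes, and against FAT-MASH 3066 higher and 949 lower. The block on replicate number, which the samples do not share (correlation of same-numbered deviations -0.01, 0.021 and -0.041), gave 5798 calls. Leaving out 1 library gave 826 to 1207 higher genes (826 without 20% mannose replicate 2, 886 without FAT-MASH replicate 2) and 1938 to 2476 in either direction for 20% mannose against FAT-MASH. For FAT-MASH against the normal diet it gave 937 to 1208 higher genes (937 without FAT-MASH replicate 3, 985 without normal diet replicate 3). For 20% mannose on the normal diet, DESeq2 called 24 higher, 39 lower and 63 in either direction, and no filter on low counts gave 132, 122 and 254. Leaving out 1 library there gave 0 to 93 higher, 0 to 66 lower and 0 to 159 in either direction, most without normal diet replicate 5. Among 344 named genes and 14 alternatives, 12 genes lost a call and 65 gained one in at least 1 setting; the lost calls include those of Pmm1, Gdf15 and Ppara without 1 library, Sord, Dpm2, Cebpa, Stat5b, Nr1h3, Pdia3 and Pdia6 under library totals and Cxcr2 with all 25 libraries. Calls gained without 1 library include Asns, Egfr, Tdo2 and Bckdha as lower and Cyp7a1, Tbx3, Pcna, C3 and Gpnmb as higher. Where a setting has fewer samples it has less power. Otherwise the cause was not tested. Depth limits the genes near 0 CPM on the normal diet, whose fitted fold changes depend on the prior count.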
